A study of Mus musculus with 6 samples.

Results

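Retinal ganglion cells and their axons were followed through 32 genes chosen by name. They cover ganglion cell transcription factors, RNA-binding proteins, neurofilaments, proteins of axon growth and neuronal cytoplasm, surface and secreted proteins, and genes of transmission and excitability. All 32 symbols were among the 24346 gene symbols measured, and 31 passed the filter on low values, a mean of at least 0.5 FPKM (fragments counted per kilobase of transcript, scaled to the size of the library) over the 6 libraries. Sprr1a was the member under the filter. mRNA of whole mouse retina was compared between 3 wild-type libraries (Unc119+/+) and 3 knockout libraries (Unc119-/-, a homozygous knockout). Strain, age, sex, the disrupted allele and the number of animals were looked for in the labels and not given in the sources used here, so p-values measure only the spread between these libraries, which may be technical.

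Ganglion cells are the output neurons of the retina. Their axons form the nerve fibre layer and the optic nerve, and they signal to the brain with glutamate. A small family of POU-domain factors (Pou4f1, Pou4f2, Pou4f3, also called Brn3a, Brn3b and Brn3c) sets and keeps their identity, the RNA-binding protein RBPMS marks nearly every ganglion cell in the mouse, and long myelinated axons call for neurofilaments and voltage-gated sodium channels. UNC119 carries lipid-modified proteins, chiefly in photoreceptors. Several of the genes are also used by other retinal neurons, such as Ebf1, Ebf3, Satb1, Elavl4 and Uchl1, so a level in whole retina is not that of ganglion cells alone. In such bulk samples fewer cells of a type and less RNA per cell cannot be told apart.

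Unc119 measured 1191, 1187 and 1206 FPKM in the 3 wild-type libraries (always listed as replicates 1, 2 and 3) and 510.2, 459.9 and 449 FPKM in the 3 knockout libraries (listed likewise), so all 6 went with their labels, with 39.6% of the wild-type level left. Absolute depth is unknown. Relative depth, read from the steps between low values, ran from 0.763 in wild-type replicate 1 to 1 in wild-type replicate 2. Knockout replicate 3 stood apart in lens RNA: crystallins made up 3.49% of its FPKM sum, against 0.00864% to 0.24% in the other 5 libraries. Xist and Y-linked genes marked 3 libraries as female (1 wild type, replicate 3, and 2 knockout, replicates 2 and 3) and 3 as male.

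No ganglion cell or axon gene passed the test between genotypes. Of the 31 tested, 0 were called by limma at a Benjamini-Hochberg adjusted p under 0.05, and the lowest adjusted p was 0.513 (Pvalb). Over all 14176 genes tested, 0.233% were called, 0.205% higher and 0.0282% lower in the knockout. At an unadjusted p under 0.05 there were 5 members lower (Stmn2, Thy1, Nrn1, Chrna6 and Pvalb), or 16.1% of those tested against 3.81% of all genes, and 0 higher against 5.19% of all genes. That count of 5 was not stable: it was 0 to 6 with a library left out and 1 with a constant prior variance. In 8 members, or 25.8%, every knockout library lay below every wild-type library, against 8.04% of all genes. In 0 members did every knockout library lie above, against 7.83% of all genes. Of the 31, 23 had a lower mean on the log2 scale in the knockout and 8 a higher one, while 50.7% of all genes were lower and 49.3% higher. The median difference, knockout minus wild type in log2(FPKM + 1), was -0.09 for the members and -0.0017 for all genes tested. Members measured in the same 6 libraries are not independent observations.

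The intervals show how large a difference these libraries leave room for. On the log2(FPKM + 1) scale, the 95% interval of limma lay within 1 unit of 0 for all 31 members and within 0.5 units for 28 of them. For members near or under 1 FPKM, such as Foxp2 and Pou4f3, 1 unit of this scale is more than a doubling of FPKM. For the 20 members with a mean of at least 10 FPKM the lowest bound was -0.43 and the highest 0.34. Their knockout means were 84.2% to 104% of the wild-type means. The scale of FPKM + 1 understates differences of the lower genes, which reached from 82.6% of the wild-type mean (Isl2) to 149% (Pou4f3).

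**Figure D1:**
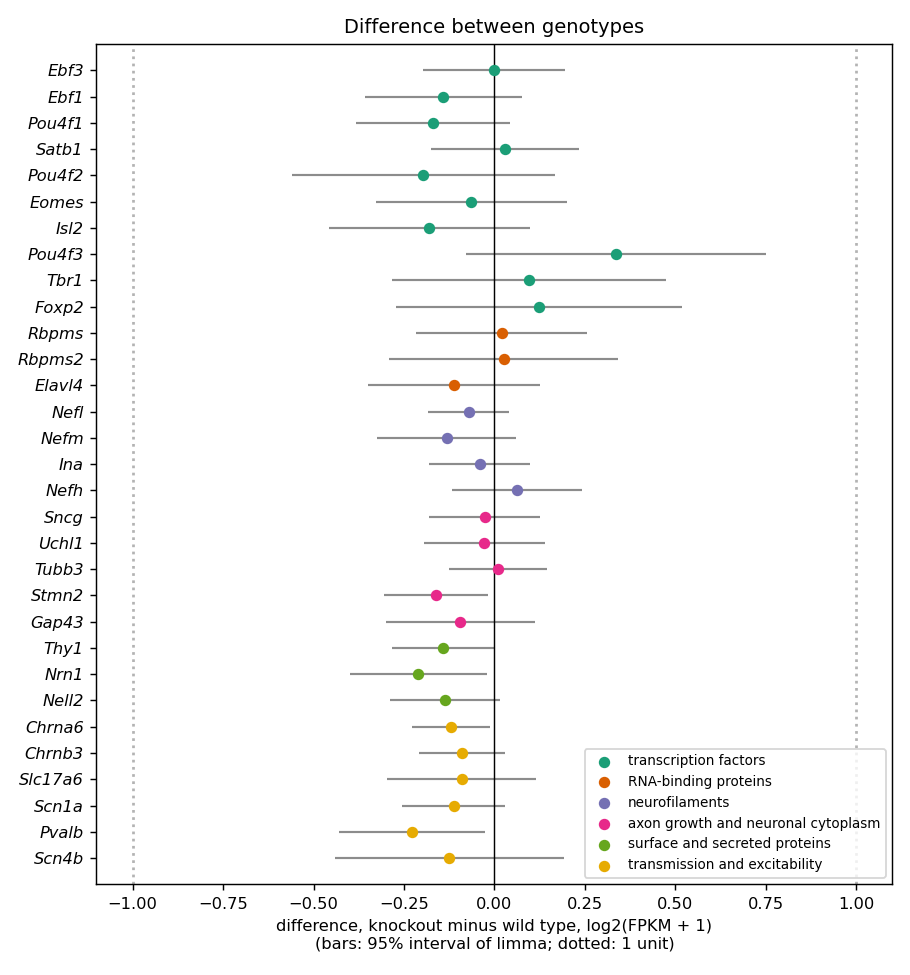
Difference between knockout and wild type on the log2(FPKM + 1) scale (x axis) for the 31 members tested, with 95% intervals of limma and colour by role group; dotted lines mark 1 unit of that scale. Points lie from -0.23 (Pvalb) to 0.34 (Pou4f3), and every interval stays between the dotted lines.

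Which wild-type library was in the comparison mattered to this median. Wild-type replicate 1 had the highest value of the 6 libraries for 17 of the 31 members (54.8%), against 18.5% of all genes tested. The median member stood at 0.08, -0.01 and -0.08 in wild-type replicates 1, 2 and 3 relative to the wild-type mean, and at -0.08, -0.06 and -0.09 in knockout replicates 1, 2 and 3. Wild-type replicate 3 was therefore level with the knockout libraries. Without wild-type replicate 1 the median difference was -0.04, 21 members were lower and 0 had an unadjusted p under 0.05 (limma). Without wild-type replicate 2 it was -0.10, with 24 lower and 1 of them at such a p. Without wild-type replicate 3 it was -0.11, with 26 lower and 4 of them at such a p. Leaving out knockout replicate 1, 2 or 3 gave 1, 6 and 1 members lower at such a p. Within male libraries (2 wild type, 1 knockout) the median was -0.12, and within female libraries (1 wild type, 2 knockout) it was -0.02. Without knockout replicate 3, the library rich in lens RNA, the median was -0.08, and a fit that included lens RNA as a covariate gave -0.11. The 12 markers of optic nerve glia summed to 24.1, 26.2 and 26.9 FPKM in the wild-type libraries and 30.4, 27.3 and 28.4 FPKM in the knockout libraries. Their defining markers Mog (at most 0.429 FPKM) and Mobp (0 in 5 of 6 libraries) were near 0. Their part in the result was not tested.

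**Figure D2:**
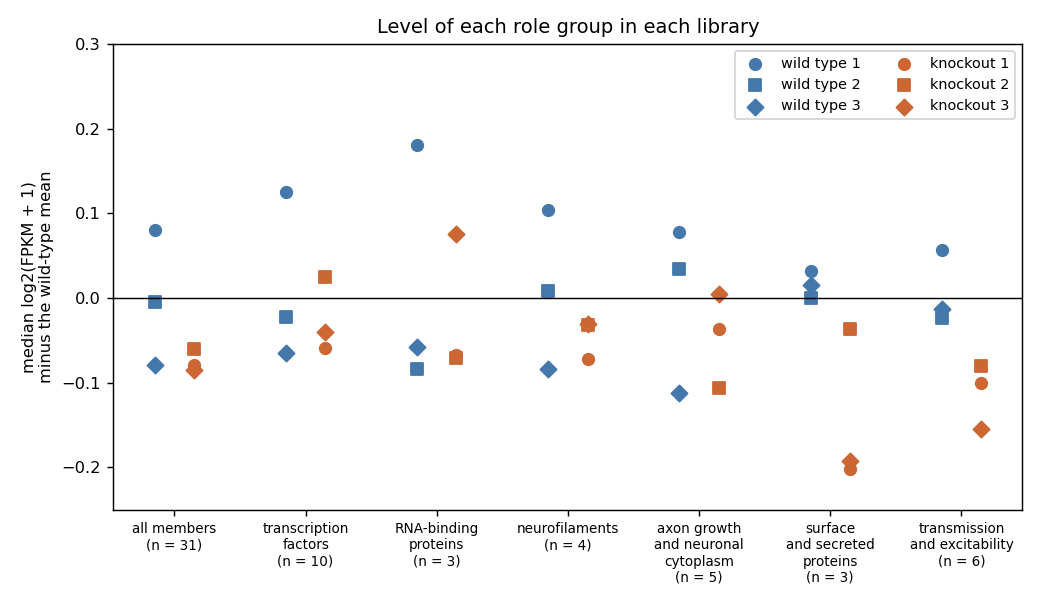
Median level of each role group in each library, as log2(FPKM + 1) minus the wild-type mean (y axis), for the members tested. Wild-type replicate 1 is highest in each group, and the genotypes stand apart only for the surface and secreted proteins and for transmission and excitability.

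Transcription factors had the lowest levels per length of the role groups, with means over the 6 libraries from 0.565 FPKM (Foxp2) to 10.4 FPKM (Ebf3). Pou4f2, the first of its family to act in newborn ganglion cells, measured 4.28, 3.80 and 3.91 FPKM in the wild-type libraries and 2.87, 4.57 and 2.83 FPKM in the knockout libraries. Knockout replicate 2 held the highest value of all 6, the other knockout libraries held the lowest, and the difference was -0.20 (95% interval -0.56 to 0.17, adjusted p = 0.724 by limma). It was -0.37 without knockout replicate 2, -0.11 without knockout replicate 1 and -0.10 without knockout replicate 3. Pou4f1, which acts in ganglion cells and in many sensory neurons, measured 7.62, 6.65 and 6.54 FPKM in wild type against 6.07, 5.62 and 6.47 FPKM in the knockout. Its genotypes did not overlap, by a margin of 0.0734 FPKM (difference -0.17, 95% interval -0.38 to 0.04, adjusted p = 0.624 by limma, exact two-sided permutation p = 0.1, the smallest that 3 against 3 libraries allow). Pou4f3, better known from hair cells of the ear, was lower in level and went the other way, with 1.55, 1.32 and 1.15 FPKM in wild type against 1.83, 1.42 and 2.74 FPKM in the knockout. The genotypes overlapped, the difference was 0.34 (95% interval -0.08 to 0.75, adjusted p = 0.615 by limma), and the highest value was in knockout replicate 3, the library rich in lens RNA.

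Isl2, a LIM-homeodomain factor of ganglion cells that project across the midline, measured 2.47, 2.04 and 1.97 FPKM in wild type against 1.69, 1.70 and 1.96 FPKM in the knockout. The groups were separate only in the second decimal, and the adjusted p was 0.686 (limma, difference -0.18). Ebf3, an early B-cell factor shared with amacrine cells and the most abundant factor of the group, measured 11.6, 9.48 and 10.02 FPKM in wild type against 10.6, 10.2 and 10.3 FPKM in the knockout. Wild-type libraries lay on both sides of the knockout libraries, which spanned 0.405 FPKM (difference -0.00065, 95% interval -0.20 to 0.20, adjusted p = 0.999 by limma). The other 5 factors were Ebf1, Eomes (Tbr2, of intrinsically photosensitive ganglion cells), Tbr1, Satb1 and Foxp2. All 5 overlapped between genotypes, with differences from -0.14 (Ebf1) to 0.12 (Foxp2).

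Promoters were examined for what the members share beyond the rule. RefSeq promoter windows were found for 19 of the 32 genes (29 windows, build GRCm38.p6), and the 250 bases before each start were searched on both strands for the TATA box TATAAA, the CCAAT box CCAAT and the GC box GGGCGG. A GC box was in 37.9% of the member windows and 32.7% of all 32851 windows, and a CCAAT box in 34.5% and 33.8%. A TATA box was in 1 member window (3.45%), that of Sprr1a, and in 12.4% of all windows. Pou4f2 is shown as a defining ganglion cell gene with 5 GC boxes, 2 of them overlapping by 2 bases. Sprr1a is shown as the member at or near 0, with its TATA box 43 bases and its CCAAT box 26 bases before the RefSeq start. The GENCODE annotation used for positions places the start of Sprr1a at 92485895, inside the window shown. Capitals mark the motifs. A match is a description of the letters and not of binding.
Pou4f2 (chr8:78436648-78436897, minus strand, GRCm38.p6): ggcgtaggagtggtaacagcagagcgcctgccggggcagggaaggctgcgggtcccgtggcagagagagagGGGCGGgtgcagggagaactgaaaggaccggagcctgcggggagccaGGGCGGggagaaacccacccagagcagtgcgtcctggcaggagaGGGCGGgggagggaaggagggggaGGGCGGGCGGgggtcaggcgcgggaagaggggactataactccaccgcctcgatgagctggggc
Sprr1a (chr3:92485882-92486131, minus strand, GRCm38.p6): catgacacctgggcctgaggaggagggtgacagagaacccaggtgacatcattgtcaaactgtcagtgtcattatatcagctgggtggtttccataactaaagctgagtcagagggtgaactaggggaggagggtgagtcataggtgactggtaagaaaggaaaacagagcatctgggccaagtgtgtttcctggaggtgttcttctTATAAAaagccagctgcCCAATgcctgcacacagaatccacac

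All 3 RNA-binding proteins overlapped between genotypes. Rbpms, the pan-ganglion cell marker, measured 17.1, 14.4 and 14.7 FPKM in the wild-type libraries and 17.2, 13.5 and 16.2 FPKM in the knockout libraries. The highest and the lowest value were both in knockout libraries. Its difference was 0.02 (95% interval -0.22 to 0.26, adjusted p = 0.968 by limma), and the mean was 15.4 ± 1.44 FPKM in wild type against 15.7 ± 1.93 FPKM in the knockout (SD, n = 3 each). Its paralog Rbpms2 measured 13.6 ± 2.38 and 13.7 ± 1.81 FPKM, and Elavl4 (HuD), a neuronal RNA-stabilizing protein also found in amacrine cells, 8.03 ± 1.06 and 7.33 ± 0.470 FPKM.

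The neurofilament chains included Nefl, the most abundant of the members. Nefl, the light chain on which the filament is built (chromosome 14, 68083863 to 68089095, plus strand, mm10), measured 167, 163 and 151 FPKM in wild type against 150.4, 155 and 151 FPKM in the knockout. The difference was -0.07 (95% interval -0.18 to 0.04, adjusted p = 0.692 by limma), and wild-type replicate 3 lay among the knockout libraries. Nefm, the medium chain, measured 41.0, 33.5 and 33.9 FPKM in wild type against 34.5, 31.8 and 31.9 FPKM in the knockout. Wild-type replicate 1 stood above the other 5 libraries, and the difference was -0.13 with it and -0.04 without it. The annotated span of Nefm (68082590 to 68124846, minus strand) holds all of Nefl, and the annotated exons of both share 1108 bases. The libraries were made with a stranded kit. Whether fragments were also counted by strand was looked for and not given in the sources used here. It is therefore unknown to which gene the fragments there were counted. Nefh, the heavy chain of thick axons, measured 27.7, 24.8 and 22.5 FPKM in wild type against 25.5, 26.9 and 25.8 FPKM in the knockout, a difference of 0.06 with the knockout values inside the wild-type range. Ina, internexin alpha, measured 32.3 ± 1.63 and 31.3 ± 1.59 FPKM (SD, n = 3 each). It shares 456 exonic bases with Nt5c2 on the opposite strand, which measured 17.3 ± 1.04 and 17.2 ± 1.05 FPKM. None of the 4 chains separated the genotypes.

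**Figure D3:**
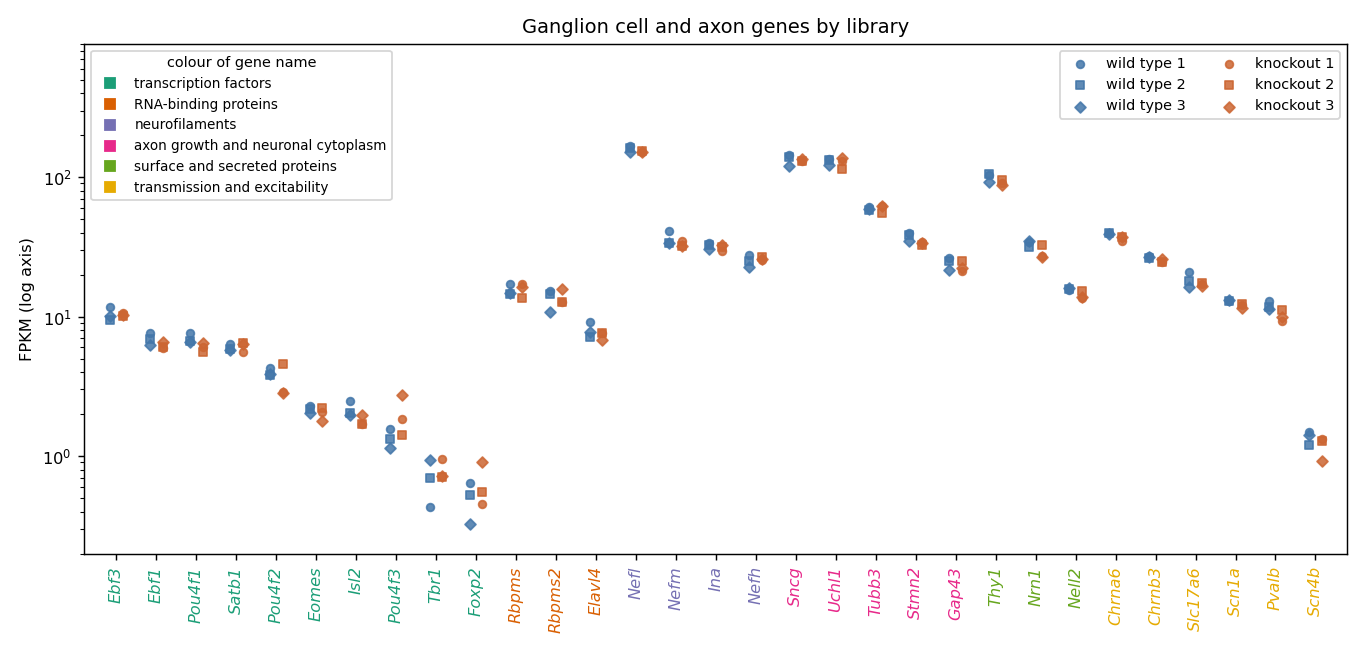
FPKM on a log axis for each of the 31 members tested in each library, with wild type in blue on the left of each pair and knockout in orange on the right; the colour of a gene name gives its role group. Levels span from under 1 FPKM (Foxp2) to 156 FPKM on average (Nefl), and at most genes the points of both genotypes overlap.

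Of the 5 genes of axon growth and neuronal cytoplasm that were tested, 1 (20%) was lower in every knockout library, against 8.04% of all genes. Stmn2, a tubulin-binding protein of growing and regenerating axons, measured 39.8, 38.5 and 34.7 FPKM in wild type against 34.3, 32.4 and 33.8 FPKM in the knockout. The lowest wild-type value was 0.394 FPKM above the highest knockout value (difference -0.16, 95% interval -0.30 to -0.02, unadjusted p = 0.0314 and adjusted p = 0.515 by limma, adjusted p of 0.493 to 0.851 over the alternatives). Gap43, a growth-cone phosphoprotein that rises in regenerating neurons, measured 26.4, 25.1 and 21.7 FPKM in wild type against 21.2, 24.9 and 22.2 FPKM in the knockout, with overlapping genotypes. Its difference was -0.09, and -0.04 without wild-type replicate 1 against -0.17 without wild-type replicate 3. Sncg, gamma-synuclein, which is strongly enriched in ganglion cells, measured 143, 139.9 and 121 FPKM in wild type against 131, 129.6 and 135 FPKM in the knockout. The knockout values lay within the wild-type range and the difference was -0.03 (95% interval -0.18 to 0.13, adjusted p = 0.920 by limma).

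Tubb3, the neuronal beta-tubulin, measured 59.1 ± 1.56 FPKM in wild type against 59.6 ± 4.14 FPKM in the knockout, and Uchl1, a neuronal deubiquitinase, 129 ± 6.88 and 127 ± 11.4 FPKM (SD, n = 3 each). Sprr1a, a small proline-rich protein of cornified epithelium that injured ganglion cells also switch on, was listed at 0 in 4 libraries, at 0.263 FPKM in wild-type replicate 3 and at 0.227 FPKM in knockout replicate 2. Multiplied by relative depth, both values were 0.212, so both libraries held the same amount of signal at the lower end of what is measured. An exact 0 in these tables can also be a failed estimate. The injury marker was thus at or near 0 in both genotypes, and it was not tested.

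Surface and secreted proteins were lower in the knockout on average for all 3 members. Thy1, a glycolipid-anchored glycoprotein used to label ganglion cells, measured 104, 106 and 92.6 FPKM in wild type against 90.6, 95.03 and 88.0 FPKM in the knockout. Wild-type replicate 3 lay below knockout replicate 2, and the difference was -0.14 (95% interval -0.28 to -0.00054, unadjusted p = 0.0493 and adjusted p = 0.554 by limma). Nrn1, neuritin, a neurite-promoting protein, measured 34.1, 31.4 and 34.6 FPKM in wild type against 27.3, 32.5 and 26.6 FPKM in the knockout. Knockout replicate 2 was inside the wild-type range and the other 2 knockout libraries were below it (difference -0.21, unadjusted p = 0.0345, adjusted p = 0.519 by limma). Nrn1 shares 501 exonic bases with Fars2 on the opposite strand, which measured 8.07 ± 0.835 FPKM in wild type against 7.61 ± 0.510 FPKM in the knockout. Nell2, a secreted axon guidance ligand, measured 15.6, 15.8 and 16.0 FPKM in wild type against 13.6, 15.4 and 13.9 FPKM in the knockout, with separate genotypes and an adjusted p of 0.582 by limma (difference -0.14).

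Of the 6 members of transmission and excitability, 4 were below wild type in every knockout library, against 8.04% of all genes. Whether the role groups differ from each other was not tested. Chrna6 and Chrnb3 encode nicotinic acetylcholine receptor subunits that ganglion cells carry, and they are neighbours on chromosome 8 (27403212 to 27413944, minus strand, and 27368711 to 27399730, plus strand, mm10). Chrna6 measured 39.9, 39.997 and 39.2 FPKM in wild type against 35.03, 37.3 and 37.0 FPKM in the knockout (difference -0.12, SE 0.05, 95% interval -0.23 to -0.01, unadjusted p = 0.0338, adjusted p = 0.519 by limma). Chrnb3 measured 27.4, 26.1 and 26.5 FPKM in wild type against 24.7, 24.5 and 25.9 FPKM in the knockout, a difference of -0.09 with an adjusted p of 0.640 by limma. The margin between genotypes was 1.91 FPKM for Chrna6 and 0.219 FPKM for Chrnb3, at knockout means of 91.8% and 93.8% of wild type.

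Scn1a, a pore-forming sodium channel of the axon, measured 13.0, 13.0 and 13.2 FPKM in wild type against 12.2, 12.4 and 11.5 FPKM in the knockout. The wild-type libraries were within 0.154 FPKM of each other and all above the knockout libraries, at an adjusted p of 0.630 by limma (difference -0.11). Pvalb, the calcium buffer parvalbumin of a set of ganglion cells, had the lowest difference of all members. It measured 13.0, 11.7 and 11.3 FPKM in wild type against 9.30, 11.1 and 9.95 FPKM in the knockout (difference -0.23, SE 0.09, 95% interval -0.43 to -0.03, unadjusted p = 0.0311, adjusted p = 0.513 by limma). The margin between knockout replicate 2 and wild-type replicate 3 was 0.194 FPKM. Parvalbumin is also a gene of fast muscle. The 13 muscle markers summed to 8.37, 12.3 and 9.15 FPKM in wild type against 5.40, 7.04 and 9.92 FPKM in the knockout, with Myh2 at 0 in every library. Of the 13, 11 were under the filter on low values and were not tested. Among these 11, Atp2a1, the calcium pump of fast fibres, measured 0.403, 0.346 and 0.478 FPKM in wild type against 0.247, 0.165 and 0.279 FPKM in the knockout. Actn3, at 0 FPKM in knockout replicate 1, was also lower in every knockout library. The 8.04% of genes tested that were so all passed the filter, and no share was counted for genes under it. Tnni2, also under the filter, went the other way, at 0.0892 FPKM on average in wild type against 0.191 FPKM in the knockout. Mylpf measured 5.05 FPKM on average in wild type against 4.04 FPKM in the knockout, with overlapping genotypes. The part of muscle RNA in the result was not tested.

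Slc17a6, the vesicular transporter VGLUT2 that loads glutamate in ganglion cells, measured 20.7, 17.95 and 16.2 FPKM in wild type against 17.3, 17.4 and 16.5 FPKM in the knockout. The knockout values lay inside the wild-type range (difference -0.09, 95% interval -0.30 to 0.11, adjusted p = 0.776 by limma). The difference was -0.0012 without wild-type replicate 1 and -0.17 without wild-type replicate 3. Scn4b, an accessory sodium channel subunit, measured 1.37 ± 0.151 and 1.18 ± 0.218 FPKM (SD, n = 3 each).

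Further genes of the axon gave differences of similar size. Among 25 genes of the axonal cytoskeleton and transport, 20 were lower (50.7% of all genes were) and 5 higher, with a median of -0.06 and 0 called. Sarm1, whose enzyme activity drives axon degeneration, had the lowest p of this list and measured higher, at 26.4, 30.1 and 27.6 FPKM in wild type against 33.1, 33.2 and 31.2 FPKM in the knockout (difference 0.21, unadjusted p = 0.00990, adjusted p = 0.399 by limma). Kif5c, a kinesin motor, measured 53.1, 50.1 and 52.9 FPKM in wild type against 47.0, 47.4 and 48.1 FPKM in the knockout (difference -0.13, adjusted p = 0.493 by limma). At an unadjusted p under 0.05, 4 genes of this list were lower (Kif5c, Map1a, Map2 and Kif5a), or 16% against 3.81% of all genes, and 1 was higher (Sarm1), where 5.19% of all genes were. In 7 genes of this list (28%) every knockout library lay below wild type, against 8.04% of all genes. In 2 every knockout library lay above, where 7.83% of all genes did. Of 22 genes of the axon initial segment, the node and repolarization, 18 were lower, against the same 50.7%, and 4 higher, with a median of -0.07 and 0 called. At an unadjusted p under 0.05, 3 of them (13.6%) were lower, against 3.81% of all genes, and 0 higher, against 5.19%. Every knockout library lay below wild type in 4 (18.2%), against 8.04%, and above in 0, against 7.83%. Cntnap2, which clusters potassium channels beside the node, measured 28.2, 25.6 and 25.6 FPKM in wild type against 21.3, 23.0 and 23.6 FPKM in the knockout (difference -0.22, unadjusted p = 0.00945, adjusted p = 0.399 by limma), and Scn3b, a sodium channel beta subunit, 9.02 ± 0.633 and 7.30 ± 1.195 FPKM (SD, n = 3 each).

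Of 18 genes of ganglion cell subtypes and development that were tested, 11 were higher and 7 lower, with a median of 0.09, 0 called and 0 at an unadjusted p under 0.05. Relative to the wild-type mean their median was -0.06, 0.02 and 0.16 in knockout replicates 1, 2 and 3, and 6 of the 18 were highest in knockout replicate 3, the library rich in lens RNA. The median difference was -0.09 within male and 0.18 within female libraries, so its direction differed between them. Klf7, a factor of axon growth, measured 5.46, 5.60 and 4.91 FPKM in wild type against 5.16, 9.43 and 7.40 FPKM in the knockout, with overlapping genotypes (adjusted p = 0.586 by limma). Isl1, which bipolar and amacrine cells use too, measured 24.6, 27.0 and 26.5 FPKM in wild type against 27.9, 28.2 and 27.8 FPKM in the knockout (difference 0.10, adjusted p = 0.614 by limma). Of 17 genes of the neuronal injury response, 12 were tested, with 6 higher, 6 lower and 0 called. At an unadjusted p under 0.05, 1 was higher and 1 lower, where 5.19% and 3.81% of all genes were. Every knockout library lay above wild type in 2 and below it in 1, where 7.83% and 8.04% of all genes did. Atf5, a stress factor, measured 10.8, 16.1 and 15.0 FPKM in wild type against 17.0, 21.3 and 20.0 FPKM in the knockout (difference 0.46, unadjusted p = 0.0134, adjusted p = 0.436 by limma). Gal, the neuropeptide galanin, measured 1.55 ± 0.267 FPKM in wild type against 0.793 ± 0.454 FPKM in the knockout. For Gal every knockout library lay below wild type (difference -0.54, unadjusted p = 0.0375, adjusted p = 0.524 by limma). Atf3, an early marker of axon injury, measured 4.595, 5.33 and 4.88 FPKM in wild type against 5.17, 8.06 and 5.68 FPKM in the knockout, with overlapping genotypes (adjusted p = 0.614 by limma).

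Other retinal neurons are given beside these values. The medians were -0.03 for 16 amacrine markers, -0.14 for 7 horizontal cell markers, -0.04 for 12 bipolar markers and 0.00 for 10 rod markers, each with 0 called. At an unadjusted p under 0.05, 28.6% of the horizontal, 0% of the bipolar and 0% of the rod markers were lower, against 3.81% of all genes. Every knockout library lay below wild type in 28.6%, 8.33% and 0% of them, against 8.04% of all genes. Of the amacrine markers 7 were higher and 9 lower, where 50.7% of all genes were lower. At that p 4 amacrine markers (25%) were lower and 1 was higher, where 5.19% of all genes were. In 31.25% of the amacrine markers every knockout library lay below wild type. Tfap2a, a transcription factor of amacrine cells, had the lowest p of that list and measured 12.5, 12.1 and 11.9 FPKM in wild type against 14.5, 13.7 and 15.2 FPKM in the knockout (difference 0.23, unadjusted p = 0.00764, adjusted p = 0.389 by limma). All 3 knockout libraries were above wild type. Gad1, which makes GABA and had the next lowest p, measured 110.1, 109 and 106 FPKM in wild type against 100.1, 98.8 and 99.3 FPKM in the knockout (difference -0.12, unadjusted p = 0.0140, adjusted p = 0.443 by limma). Its knockout mean was 91.8% of wild type, the same share as for Chrna6. Whether the lists differ from each other was not tested.

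**Figure D4:**
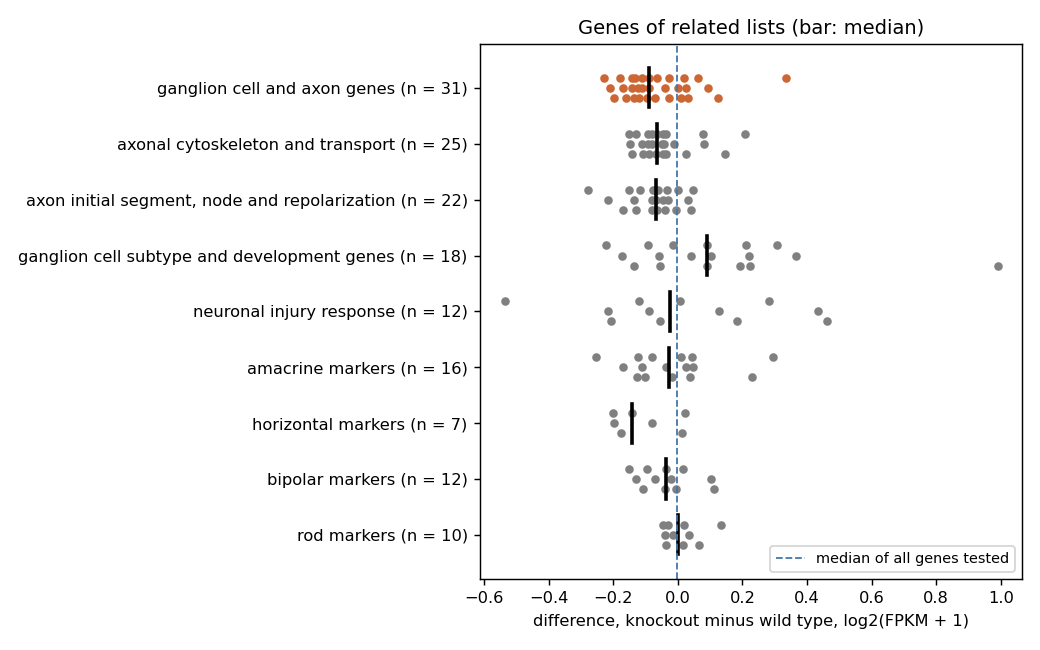
Difference between knockout and wild type in log2(FPKM + 1) (x axis) for each tested gene of the ganglion cell and axon genes (orange) and of 8 other lists (grey); black bars are list medians and the dashed line is the median of all genes tested. The medians run from -0.14 (horizontal markers) to 0.09 (subtype and development genes), with -0.09 for the ganglion cell and axon genes.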

How the data were processed

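mRNA of mouse retina was measured in 3 wild-type and 3 Unc119 knockout libraries, made with a stranded mRNA kit per the labels' protocols. The authors deposited 1 table of FPKM values per library, as the file headers name the unit. TopHat2 2.1.1, Cuffdiff 2.2.1 and the mm10 genome are named in the submitters' processing notes. Annotation, strand setting and scaling between libraries were looked for and not given in the sources used here. FPKM values are not counts, so no count model was used and no counting interval is given.

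The genotypes were compared on log2(FPKM + 1) for the 14176 genes whose mean reached 0.5 FPKM. The fit used limma 3.58.1 (R 4.3.3, two-sided) with its variance trend. P-values were adjusted after Benjamini and Hochberg across these genes, at a threshold of 0.05. The fit was tested on simulated data. Single genes also got an exact permutation test, written in Python 3.11.15. Relative depth is the commonest ratio between libraries among genes of at most 0.3 FPKM. Positions come from GENCODE M21 (GRCm38, the build of mm10) and promoters from RefSeq.

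Members and lists were chosen with earlier results of these data known. Values in every library are given for members that were called, had an unadjusted p under 0.05, had separate genotypes or were the most abundant of their role group, and for 12 members fixed by name. Of the other axon, subtype and injury lists, the 2 genes with the lowest p are named. Map1a, Map2, Kif5a, Atf3, the amacrine and muscle genes and the genes under other observations were named after their values were seen. Alternatives covered pseudocount, filter, scaling, prior variance, library weights, replicate block, sex, lens RNA and each library left out.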

Additional observations from a re-analysis of the deposited data

How the results depend on the processing

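No ganglion cell or axon gene was called higher or lower under any of the 17 alternatives, and the lowest adjusted p was 0.393 (Nrn1, without knockout replicate 2). The members' median difference stayed below 0 in all of them, from -0.11 to -0.04, both ends with a library left out. The number of members lower at an unadjusted p under 0.05 (limma), 5 as reported, was 1 with a constant prior variance. It was 2 with the replicate block, with the sex term and with the lens term, and 0 to 6 with a library left out. Of 338 values of the 20 named members tested, 324 kept their direction and 14 reversed, all of them differences near 0 and not called. Ebf3 (-0.00065 as reported) was 0.0086 with library weights, 0.0171 with the sex term and 0.0200 with the lens term, and Sncg (-0.03 as reported) was 0.0078 with the sex term. With a library left out, Ebf3 ranged from -0.0574 to 0.0767, Rbpms from -0.0490 to 0.116, Nefh from -0.0091 to 0.136 and Sncg from -0.103 to 0.0181. The number of all genes called higher, 29 as reported, was 17 with a constant prior variance, 13 with the replicate block, 17 with the sex term, 5 with the lens term and 9 to 24 with a library left out. The number called lower, 4 as reported, was 2 with no filter, with the replicate block, with the sex term and with the lens term, and 2 to 4 with a library left out. With the replicate block the members' median was -0.09. The titles share numbers between genotypes, but nothing says that these mark a litter, batch or day, so the reported values carry no block. Deviations of same-numbered libraries from their genotype mean had correlations of 0.07, -0.09 and -0.12 across genes. These cannot decide on pairing, because deviations from a mean of so few libraries are tied to each other. Fits with a library left out or a term added have fewer residual degrees of freedom. Low members such as Tbr1 and Foxp2 are the least precise.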

Other observations

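Atoh7, the factor that makes retinal progenitors competent to become ganglion cells, was listed at 0 in each wild-type library and at 0.536, 0.539 and 1.04 FPKM in knockout replicates 1, 2 and 3. It was under the filter, and in a fit with no filter its adjusted p was 0.147 by limma. Multiplied by relative depth the knockout values were 0.502, 0.502 and 1.003, at the lower end of what is measured, so no fold is given.

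Penk, proenkephalin, a gene of some ganglion and amacrine cells, measured 5.26, 8.85 and 7.80 FPKM in wild type, 6.05 and 6.74 FPKM in knockout replicates 1 and 2, and 76.9 FPKM in knockout replicate 3, the library rich in lens RNA (adjusted p = 0.738 by limma). The lens list summed to 14188 FPKM in that library and to 33.7 to 933 FPKM in the other 5, and its part in the level of Penk was not tested.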
